A study of Homo sapiens with 4 samples.

Results

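Windows of the human autosomes with few H3K9me3 peaks were described in U2OS cells, an established osteosarcoma line. The windows were chosen by the coverage of peak list 1: of 2870 full 1 Mb windows of chromosomes 1 to 22 on hg19, counted from the first base, 99 had more than 1% and less than 15% of their length under merged list 1 peaks. They held 4952 of the 309756 autosomal peaks of list 1 and 2128 of the 256524 of list 2, each peak being placed by its midpoint. A further 178 windows had at most 1% in list 1, of which 164 had no peak in either list, and 2593 had 15% or more. The study profiled the mark by chromatin immunoprecipitation and sequencing of formaldehyde-fixed cells, with 2 input samples taken without antibody and 2 samples taken with an Abcam antibody against H3K9me3. All 4 samples carry the name KRAB-IDR3-TCF3 beside U2OS, which the labels do not explain, and the labels do not say whether samples of a kind came from separate cultures. The input labels name list 1 and the antibody labels name list 2, but the names given to single peaks call both immunoprecipitations, so neither list was assigned to a sample. Such lists hold no reads, so the depth behind them is unknown, and without replicate lists none of the values carries a replicate error. Nothing in the sources used here says that the lists share no reads or input, and they are set side by side without being treated as independent.

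H3K9me3 is the histone mark of constitutive heterochromatin. It is written by SUV39H1, SUV39H2 and SETDB1, is bound by the chromodomain of HP1 proteins, and is best known from centromere-flanking repeats, telomeres, silenced transposons and clusters of KRAB zinc finger genes. Gene-rich, early-replicating chromosome bands are the classical opposite of this chromatin. The series title links the local density of the mark to the stability of HP1a condensate contacts, and the windows below are the thin end of that density.

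The low coverage of the 99 windows arose in 2 ways. In 45 windows list 1 peaks lay thinly along nearly the whole window. In the other 54 the window held stretches of at least 100 kb without a peak in either list that added up to 200 kb or more, and what lay outside these stretches could be densely covered. The first kind is called evenly sparse and the second interrupted. The dividing length was chosen after the data had been seen, and it uses the peaks of both lists. Summed free stretches of at least 200 kb occurred in 4.42% of all 2692 windows above 1%. The evenly sparse windows had list 1 coverage from 7.33% to 14.95% with a median of 12.04%. Outside the free stretches their coverage hardly differed from this, from 7.39% to 17.02%. The interrupted windows had a list 1 median of 8.05%, but outside their free stretches coverage ran from 2.86% to 85.6%. The interrupted windows thus included both sparser and denser remainders than any evenly sparse window: chr9:44000001-45000000, chr15:21000001-22000000 and chr1:143000001-144000000 had 2.86%, 3.38% and 5.26% there. Across the interrupted windows the median summed free length was 654458 bp, against 0 bp in the evenly sparse windows. The split itself sets this difference. Together with the 15% limit it also bounds the coverage of evenly sparse windows outside their free stretches, so these values describe the choice.

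**Figure D1:**
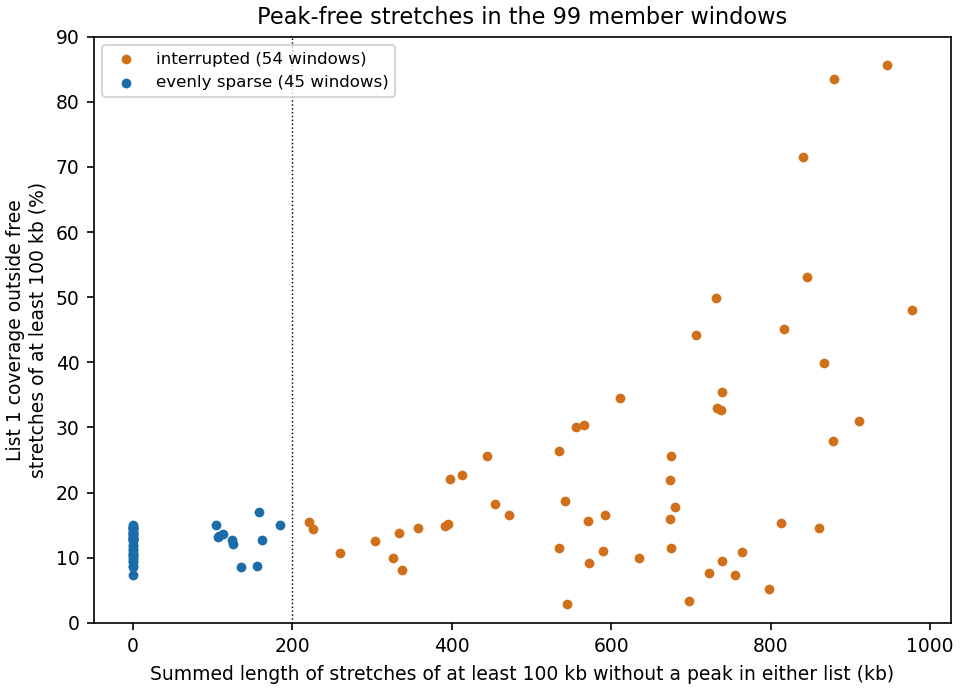
Summed length in kb of stretches of at least 100 kb without a peak in either list (x axis) against list 1 coverage in percent of the remaining sequence (y axis), 1 point per member window, with the 200 kb limit dotted. The 45 evenly sparse windows stay at or under 17.02% on the y axis, while the 54 interrupted windows reach 85.6%.

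Bins of 100 kb show how the peaks lay within the windows. The split fixes much of the difference in bins without a peak, so these counts describe it and support nothing. Of the 450 bins of evenly sparse windows 7 lacked a list 1 peak, and only 1 was covered over 50% or more of its length. Of the 540 bins of interrupted windows 256 lacked a list 1 peak and 14 were covered over 50% or more. The median bin of the evenly sparse windows was covered to 10.8% by list 1 and 2.24% by list 2, against 51.4% and 24.03% in the windows at 15% or more. List 1 peaks in the evenly sparse windows were thus spread over nearly all bins at low coverage. Of the bins of interrupted windows 47.4% had no list 1 peak. A list 2 peak was lacking in 14.9% of the bins of evenly sparse windows, against 2.03% in the windows at 15% or more. The fullest bin of an evenly sparse window held a median of 21.8% of the window's list 1 coverage and 28.9% of its list 2 coverage. In the windows at 15% or more these medians were 14.7% and 18.2%. The name evenly sparse refers only to the lack of long free stretches.

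Near the limits the choice was fine-grained. Just inside the 15% limit lay chr22:38000001-39000000 at 14.59% of list 1, chr12:110000001-111000000 at 14.91% and chr15:44000001-45000000 at 14.95%. The 3 windows just outside it were chr10:3000001-4000000 at 15.01%, chr18:23000001-24000000 at 15.13% and chr16:32000001-33000000 at 15.18%. At the lower limit the windows inside were chr15:21000001-22000000 at 1.021%, chr1:143000001-144000000 at 1.065% and chr21:9000001-10000000 at 1.076%. All 3 of these lower windows were interrupted. The windows just outside were on chromosome 9, starting at 39000001, 43000001 and 40000001, with 0.485%, 0.661% and 0.669%.

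List 2, which did not enter the choice by coverage, was thin in the same windows. In no window above 1% did list 2 cover more than list 1, the highest ratio of list 2 to list 1 coverage being 0.995. The 15% limit on list 1 therefore bounded list 2 as well, and the values below are no separate support for the choice. The members had list 2 coverage from 0.291% to 9.46%, with quartiles of 2.34% and 4.86% and a median of 3.66%. The windows at 15% or more had a list 2 median of 25.6% and a lowest value of 2.32%, so the groups overlapped only at the low end of the latter. List 2 coverage was under 5% in 75 of the 99 members, where 9.48% of all windows and 3.49% of the windows above 1% were that low. All 99 members were under 10% in list 2, against 203 of the 2593 windows at 15% or more. Taken from the other side, the 99 windows with the least list 2 coverage among those above 1% included 77 members. The other 22 had list 1 coverage from 15.01% to 26.3%.

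**Figure D2:**
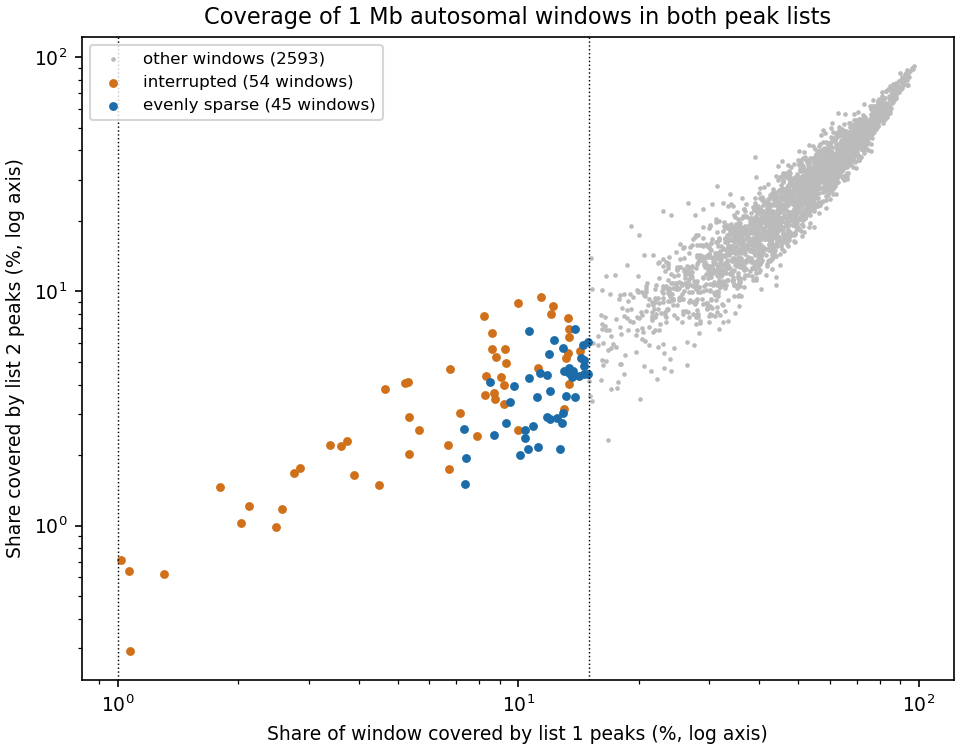
Share of each 1 Mb autosomal window covered by list 1 (x axis, %, log axis) and by list 2 (y axis, %, log axis), 1 point per window, with dotted lines at 1% and 15% of list 1; windows at or under 1% are not drawn. Members reach at most 9.46% in list 2, and the evenly sparse windows lie toward the low edge of the list 2 values at their list 1 coverage.

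The evenly sparse windows had a low ratio of list 2 to list 1 coverage. Their list 2 coverage ran from 1.51% to 6.94% with a median of 3.94%. The ratio had a median of 0.316 there, with values from 0.167 to 0.639, and of 0.509 in the interrupted windows, from 0.242 to 0.956. It was 0.524 at the median of the windows at 15% or more. A like ratio was found just above the limit: the 46 windows from 15% to 20% with the same limit on free stretches had a median of 0.370, from 0.138 to 0.537. The median ratio was therefore low in sparse, unbroken windows on both sides of the 15% line. Single windows with more list 1 coverage, picked after their values were seen, had low ratios too. They include chr13:102000001-103000000, with 26.3% in list 1 and a ratio of 0.183, and chr2:141000001-142000000, with 33.4% and 0.224. A low ratio was thus not particular to sparse windows. Ratios of coverage depend on how much each list called, and the sequencing depth behind each list is unknown.

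Little of list 2 lay in long stretches where list 1 had no peak. Over all 99 members such stretches of at least 50 kb summed to 46.4 Mb, and list 2 peaks covered 0.0946% of them. The interrupted windows, picked for long stretches free of both lists, held 37.97 Mb of this, with 0.0493% under list 2 peaks. In the evenly sparse windows the stretches summed to 8.41 Mb, and the share was higher, 0.299%. In the windows at 15% or more they summed to 77.1 Mb, with 0.143% under list 2 peaks. The low share was thus not particular to the members, and that of the evenly sparse windows lay above it.

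Location separated the kinds further. The bands below were assigned from general knowledge with borders in whole Mb, as 35 gene-rich and 43 gene-poor bands. The class is that of the whole band and need not hold for each window in it. For example, chr16:33000001-34000000, near the centromere, was counted as gene-rich with 16p11.2. Of the 99 members 38 lay in a gene-rich band, where 15.9% of the windows above 1% did. Gene-poor bands held 6 members, where 22.2% of those windows lay. Of the 45 evenly sparse windows 28 were in gene-rich bands, or 62.2%, and of the 54 interrupted windows 10 were. The 46 unbroken windows from 15% to 20% had 27 in gene-rich bands, or 58.7%, so the share was no property of the windows under 15% alone. Both lists were lower in gene-rich bands as a whole, where non-empty windows had medians of 36.3% in list 1 and 18.7% in list 2, against 49.6% and 22.9% in gene-poor bands. Non-empty windows in neither class had the highest medians, 51.3% and 27.0%, so the gene-poor bands were below these as well.

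The largest evenly sparse group of a gene-rich band was in 9q34, the band of ABL1, TSC1 and NOTCH1. All 5 of its members were evenly sparse, out of 11 windows. The run chr9:130000001-134000000 held 4 of them. From first to last these had 9.35%, 7.37%, 11.9% and 14.3% in list 1 and 2.73%, 1.51%, 5.39% and 5.21% in list 2. The window before the run had 30.1% and 11.6%, and the window after it 19.8% and 6.83%, so the near flank stood apart more than the far one. The fifth 9q34 member, chr9:139000001-140000000, had 11.17% and 3.53%. The 1 Mb that followed it at the chromosome end had 48.9% and 34.8%.

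Chromosomes 16 and 17 added further evenly sparse windows. In 16q22, the band of CTCF and NFAT5, 3 of 7 windows were members, with 8.72% to 10.6% in list 1 and 2.13% to 3.94% in list 2. The band as a whole had medians of 27.9% and 15.7%. In 17p13 3 of 10 windows were members, at 13.2% to 13.6% in list 1 and 3.58% to 4.71% in list 2. In 17q25 2 of 10 windows were members, with list 2 at 2.56% and 2.91%. In 1p36, the gene-rich end of the short arm of chromosome 1, 5 of 28 windows were members and 4 of these were evenly sparse. In 12q24, the band of PTPN11 and ALDH2, 3 of 23 windows were members, all evenly sparse, with list 2 from 2.86% to 4.46%. The members were thus a small part of most gene-rich bands, and 9q34 and 16q22 had the higher shares among the bands with evenly sparse members just named.

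A cluster outside the list of bands lay in 15q15. The region was picked after its values were seen. Of the 5 windows in chr15:40000001-45000000, 4 were evenly sparse members, and the region's medians were 14.5% in list 1 and 5.77% in list 2. The rest of chromosome 15 had medians of 42.8% and 25.1%.

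Not all evenly sparse windows were in gene-rich bands: 4 lay in gene-poor bands and 13 in neither class. Chromosome 18 held 6 of these and had no evenly sparse window in a gene-rich band. Its band 18q12, with 3 of 17 windows, was the single gene-poor band with more than 1 member; the others were 16q21, with an evenly sparse window, and 4q13 and 11q14, with an interrupted window each. The region chr18:21000001-29000000, which covers parts of 18q11 and 18q12, had 6 evenly sparse members among 8 windows. From first to last list 1 covered 7.39%, 14.2%, 15.1%, 16.8%, 12.7%, 12.9%, 11.18% and 10.1%, the third and the fourth being just over the limit. List 2 covered 1.95%, 4.36%, 3.58%, 2.32%, 2.13%, 2.75%, 2.16% and 2.01% in the same order. All 8 windows were low in both lists. The last 4 of them form a run as long as that of 9q34. By general knowledge the region includes LAMA3, a laminin chain, ZNF521, a zinc finger cofactor, CDH2, the N-cadherin gene, and the desmocollin and desmoglein cluster of desmosomal cadherins, with long gene deserts between them. The other 68 windows of chromosome 18 above 1% had medians of 51.8% and 23.9%.

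The borders of the chromosome 18 region were steep at 100 kb resolution. On the proximal side list 1 fell from 36.4% in chr18:20700001-20800000 to 15.3% in the next bin and 7.17% in the one after. List 2 went from 16.6% to 2.24% and 1.03% over the same bins. On the distal side list 1 covered 7.80% of chr18:29000001-29100000 and 51.1% of the bin that followed, and list 2 covered 1.39% and 26.3%. Both lists therefore changed level over few bins at each border. Single low bins also occurred outside, such as chr18:20500001-20600000, with 6.12% in list 1 and no list 2 peak.

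**Figure D3:**
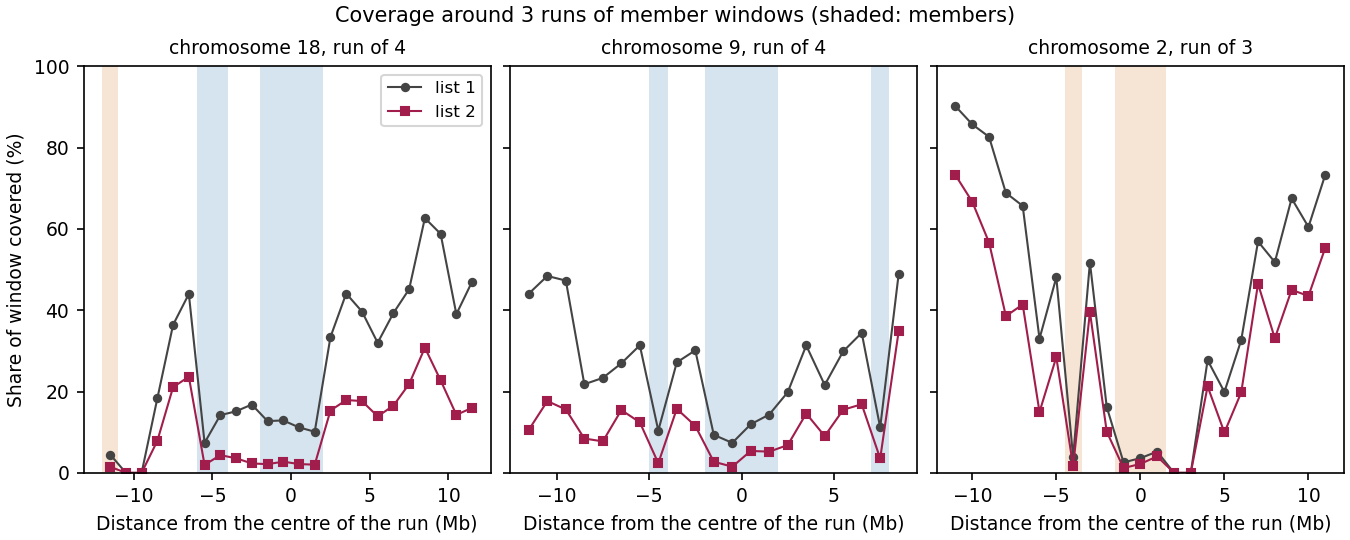
Share of each 1 Mb window covered by list 1 and list 2 (y axis, %) against the distance in Mb from the centre of 3 runs of member windows (x axis), with evenly sparse members shaded blue and interrupted members orange. Both lists stay low over the whole chromosome 18 region and return to higher values at its ends, while the chromosome 2 run adjoins windows at 0.

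The 6 chromosome 18 windows had a lower median list 2 coverage than the other 39 evenly sparse windows. The choice held list 1 under 15% in both groups, so their like list 1 medians describe it. The region was picked after its values were seen, and its members form a run of 4 and a run of 2 windows. Median list 1 coverage was 11.96% on chromosome 18 and 12.04% elsewhere. Median list 2 coverage was 2.14% on chromosome 18, from 1.95% to 4.36%, and 4.27% elsewhere, from 1.51% to 6.94%. The lowest ratio of list 2 to list 1 among the 2692 windows above 1%, 0.138, was that of the chromosome 18 window at 16.8%, which was no member. The next lowest, 0.167, was the member that follows it. Chromosome 18 windows had more list 1 peaks, 89.3 a window against 71.7, but narrower ones, with median widths of 926.5 bp and 1075 bp. Only 16.6% of these list 1 peaks overlapped a list 2 peak, against 27.5% elsewhere, and 57.9% of the list 2 peaks overlapped list 1, against 80.8%. U2OS chromosomes are rearranged, and whether the copy number of the region moves with these values was not tested. With chromosome 18 left out, 71.8% of the evenly sparse windows lay in gene-rich bands.

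Along the chromosomes the members were unevenly spread. They occurred on 21 of 22 autosomes and were missing from chromosome 3. Chromosome 16 had 12 of them, chromosome 1 had 11, chromosome 9 had 10 and chromosome 17 had 9. Evenly sparse windows occurred on 14 chromosomes, with 6 each on chromosomes 9, 16, 17 and 18. Chromosome 19, the most gene-dense autosome and the home of many KRAB zinc finger genes, had 2 evenly sparse windows among 59. The share of evenly sparse windows and the number of RefSeq protein-coding genes per window, counted by chromosome on GRCh38.p14, had a Spearman correlation of 0.385 and a Pearson correlation of 0.334 over 22 chromosomes. For the share of interrupted windows the Spearman correlation was 0.345, so a value of this size was not particular to the evenly sparse ones. These are descriptions of chromosomes of very unequal size. Chromosome 18 lay off such a relation, with 3.46 genes per window and 7.69% of its windows evenly sparse, while chromosome 19 had 24.6 genes per window and 3.39%.

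**Figure D4:**
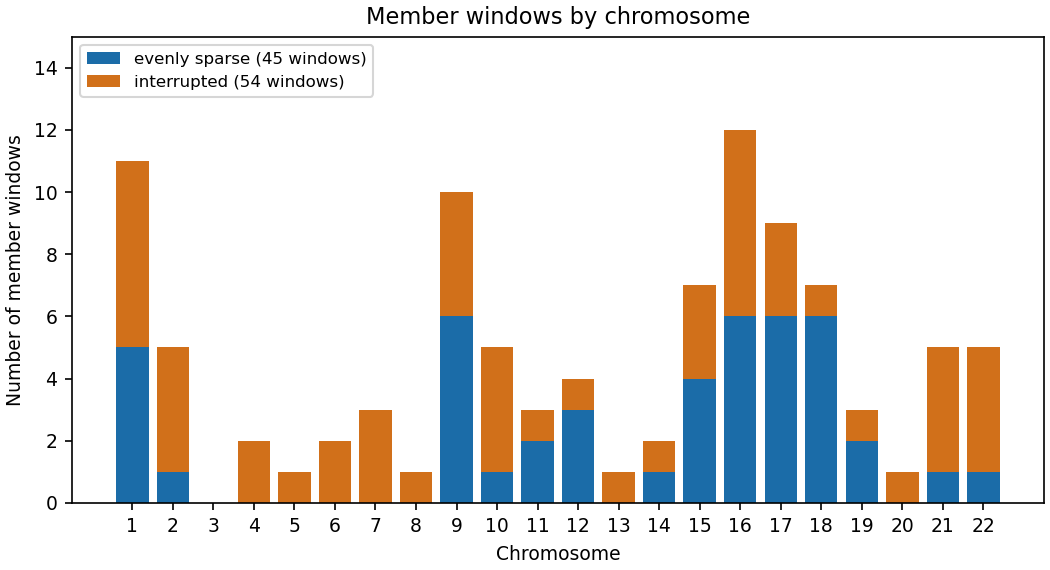
Number of member windows (y axis) on each of chromosomes 1 to 22 (x axis), stacked by kind. Chromosomes 16, 1 and 9 have the most members, with 12, 11 and 10, and chromosome 3 has none.

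Of the 99 members 56 stood alone and 43 lay in runs of 2 or more. There were 10 runs of 2 windows, 5 of 3 and 2 of 4. The 80 windows next to an evenly sparse one, 19 of them members themselves, had medians of 24.7% in list 1 and 10.4% in list 2. At 5 Mb the medians over 78 windows were 35.1% and 15.8%. The 96 windows next to an interrupted one included 24 members and 28 windows of at most 1%, and their medians were 13.32% and 5.07%. The surroundings of both kinds were therefore lower at 1 Mb than at 5 Mb, where windows around interrupted members had medians of 38.5% and 19.8%. Within 2 Mb of a chromosome end lay 7 of the 45 evenly sparse windows, or 15.6%, and 2 of the 54 interrupted ones, where 2.90% of the windows above 1% lay.

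The interrupted windows had a different geography. Of the 54, 27 lay directly beside a window of at most 1%, where 1.97% of the windows above 1% did, and none of the 45 evenly sparse windows did. A single stretch of at least 500 kb without a list 1 peak was found in 23 of the interrupted windows. Of the windows above 1%, 1.19% had one. The split and the limit on list 1 coverage select for such stretches, so this count describes the choice. From general knowledge many interrupted windows flank centromere gaps or the short arms of acrocentric chromosomes, and others hold large segmental duplications. Assembly gaps and read mappability were not part of the files, and their part in these free stretches was not tested.

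Besides the runs of 4 on chromosomes 9 and 18, the longest runs were 5 of 3 windows, all interrupted. The run chr1:142000001-145000000 had mean coverage of 3.44% in list 1 and 2.09% in list 2 and followed a window without peaks. The run chr2:90000001-93000000 had 3.801% and 2.47% and was followed by a window without peaks. The run chr15:20000001-23000000 had 6.36% and 3.10% and again followed a window without peaks. The run chr21:9000001-12000000, with 5.76% and 3.26%, had a window without peaks on either side. The run chr16:28000001-31000000, with 9.28% and 3.82%, instead lay between windows with 33.7% and 40.3% in list 1.

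Some of the interrupted windows were among the densest places once their free stretches were taken out. In chr7:58000001-59000000 the sequence outside the free stretches was covered to 85.6% by list 1 and 70.6% by list 2. In chr6:61000001-62000000 these shares were 83.6% and 74.4%, and in chr8:46000001-47000000 they were 71.6% and 59.5%. The sequence outside the free stretches was short, 54288 bp, 119784 bp and 158916 bp in these windows. All of them lie beside a centromere, where H3K9me3 is classically dense.

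The extremes of list 2 coverage among all members were interrupted windows as well. The 5 highest were chr8:46000001-47000000 at 9.46%, chr6:61000001-62000000 at 8.91%, chr4:49000001-50000000 at 8.66%, chr6:58000001-59000000 at 8.04% and chr10:39000001-40000000 at 7.85%. The 5 lowest were chr21:9000001-10000000 at 0.291%, chr9:44000001-45000000 at 0.621%, chr1:143000001-144000000 at 0.639%, chr15:21000001-22000000 at 0.715% and chr1:142000001-143000000 at 0.985%. By general knowledge both sets lie near centromeres.

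Windows in known duplicated regions made up another share of the interrupted kind, and these examples were picked after their values were seen. In 7q11.23, the Williams-Beuren region, chr7:74000001-75000000 had 2.03% in list 1 and 1.03% in list 2, with a single free stretch of 860430 bp. In 17q21.31, the region of the MAPT inversion, the windows starting at 43000001 and 44000001 had 6.71% and 8.32% in list 1 and 1.75% and 4.37% in list 2. In 22q11, the band of the DiGeorge deletion, 3 of 7 windows were members and none was evenly sparse. In 16p11.2, whose duplications flank a recurrent deletion, 3 of 5 windows were members and 1 was evenly sparse. In 1q21-23 3 of 21 windows were members and 1 was evenly sparse. The members of 17q21, 22q11, 16p11.2 and 1q21-23 were thus mainly interrupted windows.

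The peaks that remained in the evenly sparse windows were few and short. List 1 had 74.02 peaks a window there with a median width of 1050 bp, against 117.2 a window and 2061 bp in the windows at 15% or more. List 2 had 26.4 peaks a window with a median of 982 bp, against 97.8 and 1593 bp. Peaks of 5 kb or wider made up 5.31% of list 1 and 3.28% of list 2 in the evenly sparse windows, against 24.6% and 15.4%. Both fewer peaks and shorter peaks went into the low coverage, and the drop in number was the larger one in list 2. The windows were chosen by list 1 coverage, so list 1 peaks had to be fewer or shorter there. The list 1 values therefore describe the choice. The unbroken windows from 15% to 20% were intermediate, with 93.4 and 38.6 peaks a window and median widths of 1162 bp and 1100 bp.

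**Figure D5:**
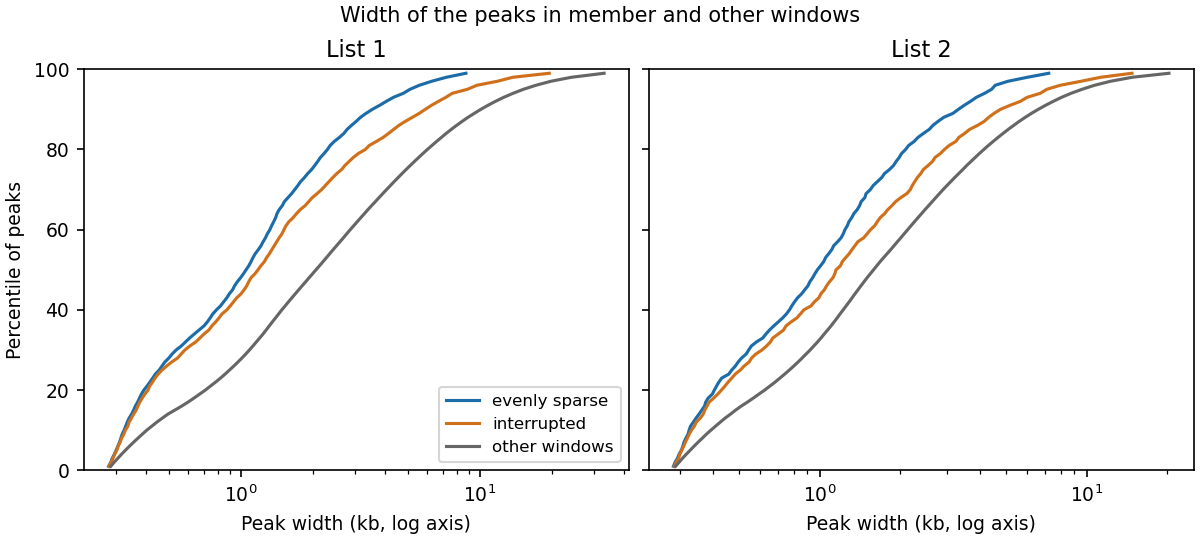
Percentiles of peak width (y axis, percentile of peaks; x axis, width in kb, log axis) for list 1 (left) and list 2 (right) in evenly sparse, interrupted and other windows. In both lists the evenly sparse windows have the narrowest peaks, with medians of 1050 bp and 982 bp against 2061 bp and 1593 bp in the other windows. The windows were chosen by list 1 coverage.

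Strength, as given by the authors' fold over the peak caller's background, differed little at the median. Only called peaks have a fold, so these medians leave out signal that was not called. They are not on one scale with peak number. The median list 2 fold was 2.08 in the evenly sparse windows, 2.15 in the interrupted ones and 2.12 in the windows at 15% or more. In list 1 the medians were 1.55, 1.63 and 1.65. A deposited q-value of 0.05 or less was reached by 2.94% of the list 2 peaks of the evenly sparse windows, 35 of 1190. The share was 5.97% in the interrupted windows and 2.10% in the windows at 15% or more. In list 1 it was 0.270% in the evenly sparse windows, 9 of 3331 peaks, 1.42% in the interrupted ones and 0.187% in the windows at 15% or more.

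The share of peaks with a partner in the other list was lower in the members, counted with an overlap of at least 1 bp. Over all members 30.4% of list 1 peaks had a list 2 partner (Wilson 95% interval 29.1% to 31.6%), against 52.2% in the windows at 15% or more. For list 2 peaks the share was 80.8% (79.1% to 82.4%), against 90.6%. In the evenly sparse windows the shares were 25.8% of list 1 and 77.7% of list 2, and in the interrupted windows 39.7% and 84.8%. Such intervals cover counting error only. Shared peaks were the wider ones: in the evenly sparse windows list 1 peaks with a partner had a median width of 2550 bp and those without one 775.5 bp. The share of peaks with a partner moves with peak width and density, so these shares were not separated from either.

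The strongest peaks among all members were at centromeres. The list 1 peak chr6:58776164-58779647 had a fold of 279 and its list 2 partner one of 298.1. Next came chr1:121480999-121485438 with 21.2 in list 1 and 23.3 in list 2. The other 3 of the first 5 were on chromosome 2, at chr2:92312755-92313276, chr2:90381048-90381724 and chr2:92323021-92325991, with list 1 folds of 15.1, 14.2 and 11.02. All 5 lie in interrupted windows and had a partner in list 2, and the first 5 of list 2 were those partners. Folds of this size at satellite repeats depend on how repeats are held in the assembly, which was not tested.

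The widest peaks lay in other windows than the strongest ones. List 1 had chr8:46954980-47034031 at 79052 bp, chr10:39103448-39154653 at 51206 bp, chr16:33876688-33909147 at 32460 bp, chr4:49044123-49073320 at 29198 bp and chr16:28036177-28064425 at 28249 bp. Of these only the 32460 bp peak lay in an evenly sparse window, chr16:33000001-34000000, near the centromere in 16p11.2. In list 2 the widest were chr10:39110103-39154573 at 44471 bp, chr8:46949942-46991562 at 41621 bp and chr6:61909679-61943604 at 33926 bp. They were followed by chr10:39076562-39099152 at 22591 bp and chr4:49051396-49073798 at 22403 bp.

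Within the evenly sparse windows the strongest list 1 peaks were placed otherwise, and they were looked up after their values were seen. Of the 5 highest folds 4 lay within 28.1 kb, chr9:139390380-139418470, inside NOTCH1 by general knowledge, a receptor gene of cell fate decisions. Their folds were 3.79, 3.55, 2.99 and 2.91. The fifth, chr11:532488-534374 with a fold of 3.51, lies at HRAS, a small GTPase gene, by general knowledge. Only 1 of the 5, the one at 3.55, had a list 2 partner. Across the NOTCH1 stretch list 1 had 7 peaks that covered 18802 bp, with a median fold of 2.91 against 1.57 for the window. List 2 had 2 peaks there that covered 1339 bp, with folds of 2.01 and 2.11 against a window median of 2.12. The stretch therefore stood out in list 1 and not in list 2.

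This difference between the lists was not limited to that stretch. Among list 1 peaks with folds in the highest 1% of the list, at least 2.43, the evenly sparse windows had 29, and 14 of them lacked a list 2 partner. That is 48.3% (Wilson 95% interval 31.4% to 65.6%), against 16.29% (15.01% to 17.7%) of 2989 such peaks in the windows at 15% or more. The unbroken windows from 15% to 20% had the like share of 50%, 25 of 50 peaks (36.6% to 63.4%). Of the 29 peaks 6 come from the NOTCH1 stretch, 5 of these without a partner, so they are not separate observations. In the other direction none of the 18 list 2 peaks in the highest 1% of that list, at least 3.04, lacked a list 1 partner (0% to 17.6%), and elsewhere this was nearly as rare, with 23 of 2488 such peaks, or 0.924%, in the windows at 15% or more. The 5 strongest list 2 peaks of the evenly sparse windows, headed by chr1:21305158-21307698 with a fold of 3.90, each had a list 1 partner with a fold from 1.92 to 2.80. The share of strong list 2 peaks without a partner was thus near the background, while that of strong list 1 peaks was higher here and in the unbroken windows just above the limit than in all windows at 15% or more.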

How the data were processed

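H3K9me3 antibody and input samples of U2OS cells were sequenced. The submitters' processing notes list MACS2 2.2.7.1, Bowtie2 2.5.0, Trim Galore 0.6.7, bcl2fastq 2.17 and the build hg19, without settings or roles. The deposited files are 2 broad peak lists. The fold of each peak is the authors' ratio over the peak caller's background, and the deposited −log10 q and score are the authors' values as well. No source used here states whether input served as control or samples were pooled. The depth per sample is unknown.

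Peaks were merged within a list and their covered length was counted per 1 Mb window up to the last full window before the last peak end. Coordinates are 1-based hg19 positions. Folds were compared within a list only. Shares of peaks carry Wilson 95% intervals for counting error. No test across replicates was possible. The members, bands and measures were chosen with earlier results of these data known.

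The windows named are the 5 longest runs, the 5 highest and 5 lowest in list 2, and 3 on each side of each limit. Bands named have at least 3 members, and peaks named are the 5 of highest fold and the 5 widest in each list. Others were chosen after their values were seen: 16q21, 4q13, 11q14, 17q25, 17q21, 7q11.23, 15q15, the chromosome 18 region, the 2 other runs of 3, the sparsest and densest remainders, and the strongest peaks of the evenly sparse windows. Genes, band borders and chromosome traits are general knowledge, since no hg19 annotation was used, and for the same reason no sequence is printed. Gene counts by chromosome are from RefSeq on GRCh38.p14. Alternatives were other coverage limits, a shifted grid, windows or chromosomes left out, stronger list 2 peaks and a stricter overlap. The coverage and overlap steps were tested on simulated data. The software was matplotlib 3.10.9, scipy 1.17.1, pandas 2.3.3 and numpy 2.4.6 under Python 3.11.15.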

Additional observations from a re-analysis of the deposited data

How the results depend on the processing

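Of 86 values recomputed under other settings of the processing, 64 stayed within the interval of the reported value and 22 moved. For the number of windows the limit was 1.5 times. The intervals count windows or peaks as separate observations, although 43 of the 99 members lay in runs. The settings also reuse many of the same windows. With hg19 chromosome lengths in place of the last peak end, all 10 values stayed. Staying within an interval is therefore no measure of stability. With an upper limit of 10% there were 49 members, a list 2 median of 2.57%, 40.8% with a 500 kb stretch free of list 1 peaks, 26.5% in gene-rich and 2.04% in gene-poor bands, overlap shares of 34.4% (list 1) and 83.0% (list 2), and a list 2 fold median of 2.148. With 20% there were 163 members, a list 2 median of 4.71% and a list 1 overlap of 31.7%. A lower limit of 5% left 12.2% with such a stretch and 32.9% in runs of 2 or more, against 23.2% and 43.4%. A grid shifted by 500 kb gave a list 2 overlap of 83.3%, and leaving out the windows with a 500 kb stretch gave a list 1 overlap of 28.7%. The list 2 peaks above their median fold covered 2.13% at the median, with a median width of 1473 bp and fold of 2.354, and the overlap shares were then 17.3% (list 1) and 89.3% (list 2). Requiring 50% of each peak to be shared gave 11.1% (list 1) and 25.8% (list 2). What moved these values was not tested.

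The limit on free stretches was chosen after seeing the data. Limits of 100 kb and 300 kb in sum gave 34 and 48 evenly sparse windows in place of 45, and a limit of 200 kb on the longest single stretch gave 50. Their gene-rich share was then 58.8%, 60.4% and 58%, and their median coverage ratio 0.301, 0.317 and 0.330. No paired analysis was possible because neither list could be assigned to a sample. Peak lists hold no depth, so windows without peaks cannot be told apart from windows that reads could not reach.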
